A study of Mus musculus with 2 samples.

Results

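The Flt3+ HSA+ sort was a fraction of the early thymic progenitors, the first T-cell precursors found in the thymus, that carried both the cytokine receptor Flt3 and the heat-stable antigen HSA (CD24) on the surface. Its members were the cells that the authors' deposited assignment placed in this sort by a hashtag, an antibody that carries a DNA barcode: 1182 of 8293 cell barcodes (14.3%). The cells came from thymus of C57BL/6 mice of genotype Bcl11byfp/yfp, in which Bcl11b, needed for commitment to the T lineage, carries a fluorescent reporter. The Flt3+ HSA+ gate was Lin- 7AAD- Kit+ CD25- Bcl11b- Flt3+ HSA+, with no gate on Ly6d. The 3 other gated sorts shared Lin- 7AAD- Kit+ CD25- Bcl11b- and were Flt3+ Ly6d- HSA- (1412 cells), Flt3- Ly6d- HSA- (1205 cells) and Flt3- Ly6d+ (847 cells, no HSA gate). The control was a broader sort of Lin- 7AAD- Kit+ cells (3302 cells), which can also hold CD25+ and Bcl11b+ cells. No source used here gives the number, age or sex of the mice. All 5 sorts were measured in 1 droplet cDNA library, and each sort was made once.

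Early thymic progenitors enter the thymus from the blood, and Flt3 and the chemokine receptor Ccr9 are known as features of the newest arrivals. Under Notch signalling they divide, lose Flt3, gain Tcf7 and later express Il2ra (CD25) and Bcl11b, while HSA is an antigen whose level separates fractions of early progenitors. A dividing cell copies its DNA in S phase, prepares division in G2 and separates its chromosomes in M phase. Transcripts of the G2 and M machinery accumulate late in the cycle, and many of their promoters carry a CCAAT box and an element called CHR, the cell cycle genes homology region.

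The values are unique molecular identifiers (UMIs), counts of captured RNA molecules, summed over the cells of a sort and scaled to CPM, the count in every 1000000 UMIs of the sort. The Flt3+ HSA+ sort held 25619232 UMIs, and the other 4 sorts held 10616041 to 57199129. A median Flt3+ HSA+ cell held 21152 UMIs, against 15478 in the Flt3+ Ly6d- HSA- sort, 9860 in the Flt3- Ly6d- HSA- sort, 11404 in the Flt3- Ly6d+ sort and 16040 in the control. With 1 sort of each kind, no difference between sorts could be set against the spread between replicates, so no test was run. Intervals in parentheses are 95% intervals of a CPM value (exact Poisson), of a ratio (binomial) or of a share of cells (exact Clopper-Pearson), and all cover counting error only.

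The promoters of 4 of the genes that stood highest in this sort relative to the other gated sorts are shown first, because these genes, all of them parts of the mitotic machinery, carry the main difference. The sequences are RefSeq's for GRCm38.p6, read 5′ to 3′ on the strand of the gene, from 250 bases before to 50 bases after the annotated start. Capitals mark CCAAT and the CHR forms TTTGAA and TTCGAA, each searched on both strands, so that a match on the opposite strand stands as the reverse complement.
Ube2c: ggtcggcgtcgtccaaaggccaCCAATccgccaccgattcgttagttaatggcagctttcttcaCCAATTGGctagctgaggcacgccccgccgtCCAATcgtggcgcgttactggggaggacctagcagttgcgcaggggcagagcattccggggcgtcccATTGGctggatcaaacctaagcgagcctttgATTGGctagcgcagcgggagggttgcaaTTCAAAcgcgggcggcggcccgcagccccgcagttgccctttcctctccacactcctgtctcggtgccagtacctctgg
Spag5: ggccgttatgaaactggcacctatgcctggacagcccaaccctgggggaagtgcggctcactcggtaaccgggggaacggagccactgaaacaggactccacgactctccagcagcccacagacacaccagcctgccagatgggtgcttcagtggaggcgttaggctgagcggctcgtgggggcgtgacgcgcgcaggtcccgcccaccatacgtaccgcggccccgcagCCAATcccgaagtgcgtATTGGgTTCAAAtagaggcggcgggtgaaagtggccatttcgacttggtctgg
Kif11: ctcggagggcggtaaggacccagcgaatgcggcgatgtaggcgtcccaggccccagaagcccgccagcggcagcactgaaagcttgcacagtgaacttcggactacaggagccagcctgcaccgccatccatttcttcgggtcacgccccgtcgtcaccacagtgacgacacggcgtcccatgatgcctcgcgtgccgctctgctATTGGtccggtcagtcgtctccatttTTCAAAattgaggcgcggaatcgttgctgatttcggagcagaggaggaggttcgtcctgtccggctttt
Nusap1: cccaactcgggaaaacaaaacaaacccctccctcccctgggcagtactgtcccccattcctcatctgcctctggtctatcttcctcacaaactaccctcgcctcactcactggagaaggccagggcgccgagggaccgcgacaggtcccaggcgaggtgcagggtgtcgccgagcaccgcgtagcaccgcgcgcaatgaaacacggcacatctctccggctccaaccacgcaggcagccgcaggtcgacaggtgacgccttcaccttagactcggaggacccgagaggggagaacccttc

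The Ube2c promoter lies at chr2:164769679-164769978 (plus strand), and 6 CCAAT matches, a pair of which overlap, stand before a single CHR match that begins 29 bases before the start. In the Spag5 promoter (chr11:78301341-78301640, plus strand) CCAAT matches begin 20 and 3 bases before the start and a CHR match begins 3 bases after it. In the Kif11 promoter (chr19:37376132-37376431, plus strand) a CCAAT match 45 bases before the start and a CHR match 19 bases before it make the only pair. The Nusap1 promoter (chr2:119618048-119618347, plus strand) held neither motif in this window. Of the 106 genes that stood apart from all 3 other gated sorts as higher (defined below), 85 matched a promoter in the table, 12 of them through an older symbol, with 89 promoters in all. A CHR form was present in 66.3% of these promoters, against 19.2% of all 32851 promoters of the same length and 14.9% of the 5363 promoters of genes at 20 CPM or more in the Flt3+ HSA+ sort. CCAAT was present in 70.8%, against 37.4% and 37.9%, and both together in 52.8%, against 7.52% and 6.36%. A match is a description of letters and not a binding site.

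The RNA of the gated antigens and of the markers of the sort was checked against the label. Flt3, the receptor tyrosine kinase used for the gate, stood at 64.1 CPM (61.0 to 67.2) in the Flt3+ HSA+ sort, 87.7 in the Flt3+ Ly6d- HSA- sort, 23.8 in the Flt3- Ly6d- HSA- sort, 14.2 in the Flt3- Ly6d+ sort and 18.02 in the control. Cd24a, which encodes HSA, stood at 142 CPM (138 to 147) in the Flt3+ HSA+ sort, against 80.4 in the Flt3+ Ly6d- HSA- sort, 96.2 in the Flt3- Ly6d- HSA- sort, 203 in the Flt3- Ly6d+ sort and 206 in the control. The sort therefore had the second highest Flt3 RNA and, among the 3 sorts gated on HSA, the highest Cd24a RNA. Cd24a was 1.77-fold (1.67 to 1.87) the level of the HSA- Flt3+ sort. With every cell thinned to 3000 UMIs, a Cd24a UMI was found in 34.9% of the Flt3+ HSA+ sort (32.2 to 37.8), against 21.4% of the Flt3+ Ly6d- HSA- sort, 26.4% of the Flt3- Ly6d- HSA- sort, 44.3% of the Flt3- Ly6d+ sort and 46.8% of control cells. Ly6d, which was not gated here, had a UMI in 2.89% of the thinned Flt3+ HSA+ cells, against 4.27% in the Flt3+ Ly6d- HSA- sort and 2.67% in the Flt3- Ly6d- HSA- sort, both gated as Ly6d-, so its share lay within that of cells sorted to lack the antigen. Cd24a spans 43578284 to 43584265 on chromosome 10 (mm10, GENCODE M21).

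**Figure D1:**
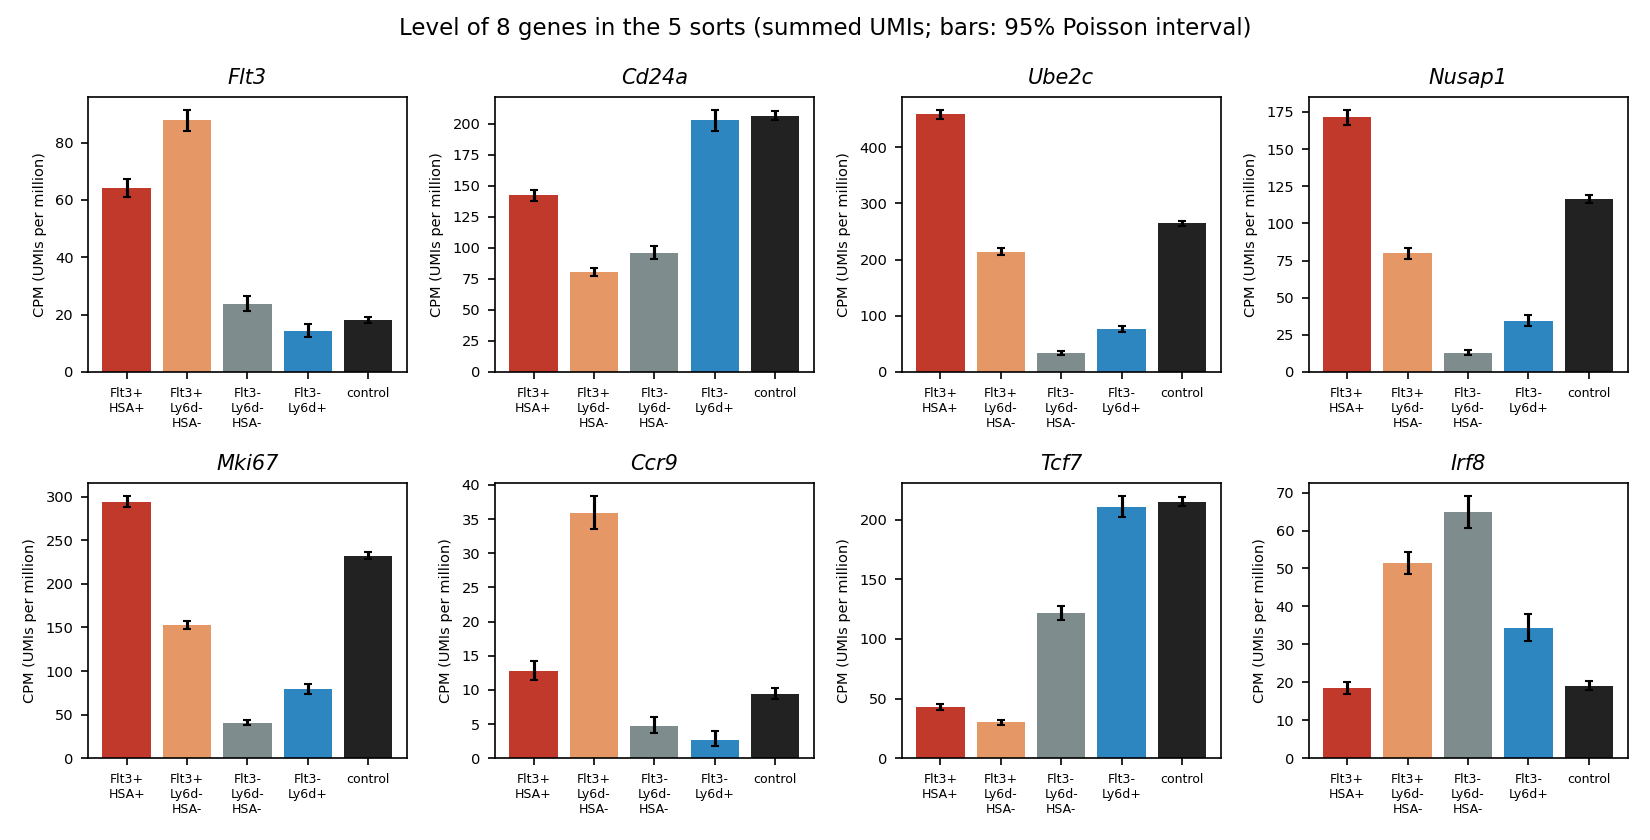
Level in CPM of 8 genes in each of the 5 sorts, with 95% Poisson intervals as error bars. Ube2c, Nusap1 and Mki67 were highest in the Flt3+ HSA+ sort, Flt3 and Ccr9 were highest in the Flt3+ Ly6d- HSA- sort, and Tcf7 was lower in both Flt3+ sorts than in the others.

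What set the sort apart was the machinery of cell division. A gene was counted as standing apart when its CPM in the Flt3+ HSA+ sort was at least 1.5-fold over, or under, that of each of the other 3 gated sorts, and when the higher sort reached 20 CPM with the gene detected in 5% or more of its cells. A sum over a sort cannot tell fewer cells of a kind from less RNA per cell. By this rule 106 of 5475 genes (1.94%) stood higher and 6 (0.11%) stood lower. Of the 106, 57 were in 6 lists of the G2 and M machinery, which hold 93 genes, 2 were in the S phase list and 9 were histone genes of the Hist1 and Hist2 clusters, whose near-identical copies make the level of each uncertain. Among the first 20 genes of this set were Cd74, the MHC class II invariant chain, and then Nusap1, Ube2c, Spag5, Sgol2a, Kif11, Hmmr, Cenpl, Plk1, Cenpf, Aspm, Ckap2l, Mki67, Spdl1, Sgol1, Prc1, Hist1h2ab, Kif4 and Spc25, of which all but Cd74 and the histone gene Hist1h2ab serve mitosis or mark dividing cells. Of the Cd74 UMIs of the sort, 86.9% lay in 8 cells described below. In 1147 other cells of the sort Cd74 stood at 6.33 CPM, under the 20 CPM of the rule. Counted only over cells with no G2 or M UMI among 3000, of which this sort had 244, 8 genes stood higher and 3 of them were among the 106. Such cells are chosen for their lack of G2 and M transcripts, so the loss of those genes is fixed by the choice. Among the 358 genes whose highest and lowest gated sort were at least 2-fold apart, Flt3+ HSA+ cells were the highest of the 4 gated sorts for 184 and the lowest for 64, and the sort whose level lay closest to theirs was Flt3+ Ly6d- HSA- for 328 genes (91.6%).

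Ube2c, the ubiquitin-conjugating enzyme of the anaphase promoting complex, stood at 458 CPM (450 to 467) in the Flt3+ HSA+ sort, 214 in the Flt3+ Ly6d- HSA- sort, 33.5 in the Flt3- Ly6d- HSA- sort, 76.6 in the Flt3- Ly6d+ sort and 264 in the control. Nusap1, which bundles spindle microtubules, stood at 171 CPM in the Flt3+ HSA+ sort, 79.8 in the Flt3+ Ly6d- HSA- sort, 12.9 in the Flt3- Ly6d- HSA- sort, 34.4 in the Flt3- Ly6d+ sort and 116 in the control. Mki67, the proliferation antigen Ki-67, stood at 294 CPM in the Flt3+ HSA+ sort, 153 in the Flt3+ Ly6d- HSA- sort, 40.9 in the Flt3- Ly6d- HSA- sort, 79.0 in the Flt3- Ly6d+ sort and 232 in the control. All 3 were highest in the Flt3+ HSA+ sort and lowest in the Flt3- Ly6d- HSA- sort, and the control, not the other Flt3+ sort, came second.

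By role, the genes of chromosome segregation were higher as groups. A list member was measured in a comparison when it reached 5 CPM in either sort, and counted at 1.5-fold, and these comparisons share the Flt3+ HSA+ cells. Over the Flt3+ Ly6d- HSA- sort, 2.05% of all 9066 genes measured were higher and 0.75% lower by this rule, with a median log2 ratio of -0.00. Of 12 mitotic kinases and members of the chromosomal passenger complex, 11 were higher over that sort, with a median log2 ratio of 0.73. Plk1, a kinase of mitotic entry, stood at 63.6 CPM in the Flt3+ HSA+ sort and 31.8 in the Flt3+ Ly6d- HSA- sort, and Aurkb, the kinase of the passenger complex, at 101 in the Flt3+ HSA+ sort and 60.6 in the Flt3+ Ly6d- HSA- sort. Of 25 spindle genes, 21 were higher (median log2 0.78), among them the motor Kif11 at 104 CPM in the Flt3+ HSA+ sort and 50.5 in the Flt3+ Ly6d- HSA- sort, a ratio of 2.07 (1.93 to 2.21). Of 18 centromere and kinetochore genes, 12 were higher (0.74), and Cenpf, a kinetochore protein of G2 and M, stood at 205 CPM in the Flt3+ HSA+ sort and 104 in the Flt3+ Ly6d- HSA- sort. Of 10 condensin and mitotic chromosome genes, 7 were higher (0.74), with Top2a, the topoisomerase that untangles sister chromatids, at 577 CPM in the Flt3+ HSA+ sort and 308 in the Flt3+ Ly6d- HSA- sort. Of 11 members of the anaphase promoting complex and its substrates, 4 were higher, namely Ube2c, Cdc20, Espl1 and Fbxo5. No member of these lists was lower.

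Cyclins differed among themselves in the comparison with the other Flt3+ sort. Ccnb1, the cyclin of mitotic entry, stood at 128 CPM in the Flt3+ HSA+ sort, 71.8 in the Flt3+ Ly6d- HSA- sort, 20.0 in the Flt3- Ly6d- HSA- sort, 27.03 in the Flt3- Ly6d+ sort and 81.0 in the control. Ccne1, a cyclin of S phase entry, stood at 9.02 CPM in the Flt3+ HSA+ sort, 9.99 in the Flt3+ Ly6d- HSA- sort, 5.28 in the Flt3- Ly6d- HSA- sort, 3.96 in the Flt3- Ly6d+ sort and 12.7 in the control. The ratio over the Flt3+ Ly6d- HSA- sort was thus 1.78 (1.68 to 1.89) for Ccnb1 and 0.90 (0.75 to 1.08) for Ccne1, so the intervals of these cyclins did not overlap. Ccnb2, another mitotic cyclin, did not reach 1.5-fold, at 131 CPM in the Flt3+ HSA+ sort and 101 in the Flt3+ Ly6d- HSA- sort, and over both Flt3- sorts Ccne1, Ccne2, Ccna2, Ccnb1 and Ccnb2 were all counted as higher. Counted over the Flt3+ Ly6d- HSA- sort, 8 of 17 cyclins, kinases and activators were higher and none was lower. The 8 were Ccna2, Ccnb1, Ccnf, Cdk1, Cdc25b, Cdc25c, Cdkn3 and Foxm1.

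Genes of S phase differed less from the other Flt3+ sort than those of mitosis. Of 36 S phase and replication genes, 4 were higher over the Flt3+ Ly6d- HSA- sort (Pole, E2f2, E2f8 and Esco2), with a median log2 ratio of 0.18. The helicase subunit Mcm3 stood at 249 CPM (243 to 255) in the Flt3+ HSA+ sort and 246 (240 to 252) in the Flt3+ Ly6d- HSA- sort, so its intervals overlapped. The median of the 21 G2 and M genes later used to score cells was 0.83, with 19 of 21 higher. Over the Flt3- Ly6d- HSA- sort, where 6.13% of all 9238 genes measured were higher and 6.21% lower, 30 of the 36 S phase genes and 21 of the 21 G2 and M genes were higher, with medians of 0.9995 and 2.71. Rrm2, a subunit of the reductase that makes DNA precursors, stood at 109 CPM in the Flt3+ HSA+ sort and 34.0 in the Flt3- Ly6d- HSA- sort. Over the Flt3- Ly6d+ sort (7.31% of 9236 genes higher, 8.3% lower) the same counts were 27 of 36 and 21 of 21, with medians of 0.82 and 2.05. Over the control (3.39% of 9196 genes higher, 4.53% lower) they were 0 of 36 and 7 of 21, with medians of -0.06 and 0.55. The control thus lay near the sort in S phase transcripts and below it in part of the G2 and M transcripts, namely Ube2c, Cenpf, Cenpa, Plk1, Kif23, Ccnb1 and Cdc20.

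Genes that hold back the cycle had no common direction. Over the Flt3- Ly6d- HSA- sort 2 of 9 measured inhibitors were higher, Cdkn2c and Rbl1, and 3 were lower, Cdkn1a, Btg1 and Btg2. Without the granulocyte-like cells, which held 20.3% of the UMIs of the Flt3- Ly6d- HSA- sort, Btg1 and Btg2 were lower and Cdkn1a did not reach 1.5-fold, and Cdkn1a was counted as higher over the Flt3+ Ly6d- HSA- sort. Cdkn1a, the p21 inhibitor of cyclin-dependent kinases, stood at 6.56 CPM in the Flt3+ HSA+ sort, 5.20 in the Flt3+ Ly6d- HSA- sort, 13.4 in the Flt3- Ly6d- HSA- sort, 23.1 in the Flt3- Ly6d+ sort and 29.3 in the control. Btg1, an antiproliferative gene of resting lymphocytes, stood at 96.5 CPM in the Flt3+ HSA+ sort, against 106 in the Flt3+ Ly6d- HSA- sort, 200.4 in the Flt3- Ly6d- HSA- sort, 177 in the Flt3- Ly6d+ sort and 109 in the control. Without the granulocyte-like cells Cdkn1a stood at 6.76 CPM in the Flt3+ HSA+ sort, 4.40 in the Flt3+ Ly6d- HSA- sort and 10.03 in the Flt3- Ly6d- HSA- sort. Btg1 was lower in both Flt3+ sorts than in both Flt3- sorts with and without those cells.

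The summed levels were then resolved into cells. Each cell was thinned at random to 3000 UMIs, which left out 6 of the 1182 Flt3+ HSA+ cells as too shallow, and the UMIs of 21 G2 and M genes were counted. A cell with 5 or more such UMIs was taken as one rich in G2 and M transcripts, a range of a continuous count and not a cell type. These were 47.8% of the Flt3+ HSA+ sort (44.9 to 50.7), 25.1% of the Flt3+ Ly6d- HSA- sort (22.8 to 27.4), 6.64% of the Flt3- Ly6d- HSA- sort (5.27 to 8.23), 8.47% of the Flt3- Ly6d+ sort (6.67 to 10.6) and 27.4% of control cells (25.9 to 29.0). No other interval reached that of the Flt3+ HSA+ sort. In that sort 3.57% of cells lay just below the limit with 4 UMIs and 2.72% just inside it with 5. Without thinning, 74.5% of the Flt3+ HSA+ sort held 5 or more, against 53.7% of the Flt3+ Ly6d- HSA- sort, 20.996% of the Flt3- Ly6d- HSA- sort, 24.6% of the Flt3- Ly6d+ sort and 48.3% of the control.

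Cells with no G2 or M UMI among 3000 made up 20.7% of the Flt3+ HSA+ sort, 35.7% of the Flt3+ Ly6d- HSA- sort, 52.9% of the Flt3- Ly6d- HSA- sort, 50.7% of the Flt3- Ly6d+ sort and 37.0% of the control. At the other end, 17.9% of the Flt3+ HSA+ sort held 20 or more, against 6.26% of the Flt3+ Ly6d- HSA- sort, 0.862% of the Flt3- Ly6d- HSA- sort, 3.27% of the Flt3- Ly6d+ sort and 8.68% of the control. Ube2c was spread over many of these cells: the 10 cells with most Ube2c held 6.51% of its UMIs in the sort.

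**Figure D2:**
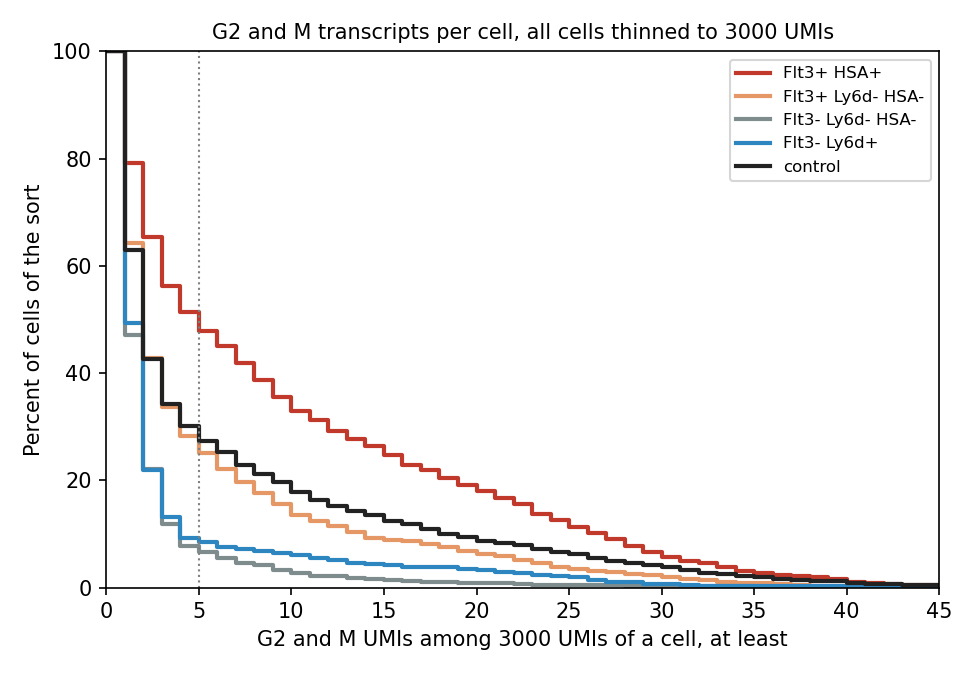
Percent of cells of each sort (y) that hold at least the number of G2 and M UMIs on the x axis among 3000 UMIs, with the limit of 5 as a dotted line. The Flt3+ HSA+ curve lies above the others up to 41 UMIs, with 47.8% of its cells at the limit.

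Depth moved with this share. Flt3+ HSA+ cells with 5 or more G2 and M UMIs held a median of 25443 UMIs at full depth, and those with none held 14657. Cells were split at 15114, 21152 and 26358 UMIs into 4 bins of depth, each with about as many Flt3+ HSA+ cells. From shallow to deep, 10.7%, 29.1%, 65.8% and 84.8% of Flt3+ HSA+ cells were rich in G2 and M transcripts. Among Flt3+ Ly6d- HSA- cells of the same depths the shares were 9.36%, 23.2%, 48.7% and 65.1%. Among control cells of those depths they were 4.87%, 21.8%, 50.6% and 80.04%, with intervals that overlap those of the Flt3+ HSA+ sort in bins 2 and 4. Below 21152 UMIs the intervals of the Flt3+ sorts overlapped, and in bin 3 the share was 65.8% (60.04 to 71.2) in the Flt3+ HSA+ sort and 48.7% (41.5 to 55.96) in the Flt3+ Ly6d- HSA- sort, with no overlap. The part that depth takes in the difference was not tested further, and RNA per cell and position in the cycle cannot be told apart here.

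**Figure D3:**
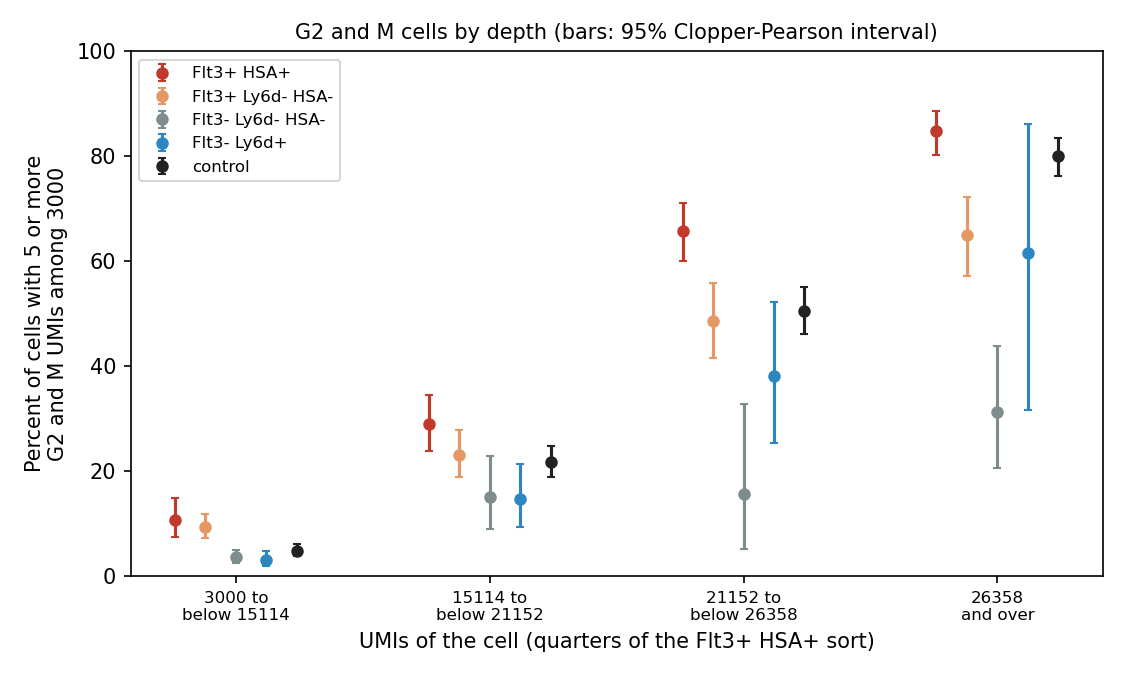
Percent of cells with 5 or more G2 and M UMIs among 3000, by UMIs of the cell, in the 5 sorts, with 95% Clopper-Pearson intervals as error bars. Shares climb with depth in every sort, and in each bin the Flt3+ HSA+ value is the highest. Its interval overlaps that of Flt3+ Ly6d- HSA- in bins 1 and 2, that of the control in bins 2 and 4, and that of Flt3- Ly6d+, with 13 cells, in bin 4.

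Among the Flt3+ HSA+ cells themselves, some genes outside the division machinery differed in CPM along this count and others did not. G2 and M genes differ there by construction, and cells with more UMIs make up the upper range. Ccr9, the receptor for the thymic chemokine Ccl25, stood at 7.48 CPM (6.156 to 8.996) in cells with 5 or more G2 and M UMIs and 26.5 CPM (21.5 to 32.3) in cells with none. Cd7, a surface antigen of T-cell and NK-cell precursors, stood at 33.7 CPM in cells with 5 or more and 99.2 in cells with none. The progenitor regulators Lmo2 and Hoxa9 stood at 94.7 and 88.7 CPM in cells with 5 or more and at 91.4 and 87.8 in cells with none. Per cell, Lmo2 and Hoxa9 had 2.52 and 2.36 UMIs in cells with 5 or more, against 1.39 and 1.33 in cells with none. They were thus alike by CPM only. Cd24a stood at 129 CPM in cells with 5 or more and 176 in cells with none, but per cell this was 3.43 UMIs and 2.66 UMIs, so the order turned with the scale. Per cell, Ccr9 was still lower in the cells with 5 or more, at 0.199 UMIs against 0.402 in cells with none. Ccne1 stood at 16.6 CPM in cells with 1 to 4 such UMIs, against 6.01 in cells with 5 or more and 7.03 in cells with none, and the S phase UMIs of a thinned cell had a median of 14 in cells with 1 to 4, 11 in those with 5 or more and 8 in those with none. These S phase medians are shares of 3000 UMIs, and the cells with 5 or more were the deeper ones, so they give no order of S phase RNA per cell.

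Progenitor and T-lineage genes were compared next. Over the Flt3+ Ly6d- HSA- sort, 0 of 17 measured stem and progenitor regulators and 0 of 12 T-lineage regulators were 1.5-fold apart in either direction, in a comparison where 2.05% of all genes measured were higher and 0.75% lower, so lists of this size give few calls. Cd34, an antigen of blood progenitors, stood at 424 CPM in the Flt3+ HSA+ sort, 466 in the Flt3+ Ly6d- HSA- sort, 355 in the Flt3- Ly6d- HSA- sort, 268 in the Flt3- Ly6d+ sort and 185 in the control. Hmga2, a chromatin protein of fetal and dividing progenitors, stood at 51.2 CPM in the Flt3+ HSA+ sort, 47.4 in the Flt3+ Ly6d- HSA- sort, 14.3 in the Flt3- Ly6d- HSA- sort, 11.6 in the Flt3- Ly6d+ sort and 12.1 in the control. The Flt3+ sorts were close to each other for both genes and above the rest. Tcf7, the transcription factor TCF-1 that starts the T-cell programme, stood at 42.8 CPM (40.3 to 45.4) in the Flt3+ HSA+ sort, 30.2 (28.0 to 32.4) in the Flt3+ Ly6d- HSA- sort, 122 in the Flt3- Ly6d- HSA- sort, 211 in the Flt3- Ly6d+ sort and 215 in the control. Gata3, another T-lineage factor, stood at 22.7 CPM in the Flt3+ HSA+ sort, 16.7 in the Flt3+ Ly6d- HSA- sort, 27.4 in the Flt3- Ly6d- HSA- sort, 36.7 in the Flt3- Ly6d+ sort and 52.2 in the control. For both the sort lay between its Flt3+ HSA- neighbour and the Flt3- sorts, 1.42-fold (1.29 to 1.56) and 1.36-fold (1.19 to 1.54) over the neighbour.

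Of the T-lineage regulators, 2 of 12 were lower than in the Flt3- Ly6d- HSA- sort (Tcf7 and Zfpm1), 6 of 12 lower than in the Flt3- Ly6d+ sort and 9 of 14 lower than in the control, and none was higher. In these comparisons 6.21%, 8.3% and 4.53% of all genes measured were lower by the same rule. Without the granulocyte-like cells the counts were 3 of 12 (with Tox), 5 of 12 (without Runx1) and 9 of 14. Within the sort, a Tcf7 UMI was found in 17.3% (13.7 to 21.3) of the thinned cells with a Cd24a UMI and in 11.4% (9.21 to 13.8) of those without, intervals that just overlap. A Cd24a UMI was found in 36.3% of cells with a Flt3 UMI and 34.6% of those without, with overlapping intervals. In all, 9 gene pairs were compared in this way, and sparse counts make any such share a lower limit.

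At a 2-fold limit few genes separated the pair of Flt3+ sorts, while at the 1.5-fold limit used for lists 186 of 9066 genes were higher and 68 lower. By the rule of a 2-fold ratio with the same limits on level, 9 of 5533 genes (0.163%) were higher in the Flt3+ HSA+ sort and 5 (0.0904%) were lower. The 9 were Cd74, the globin gene Hbb-bt, and the division genes Nusap1, Ube2c, Spag5, Sgol2a, Kif11, Hmmr and Cenpl. Most Cd74 UMIs of the sort lay in 8 cells. The 5 were Ccr9, the myeloid and dendritic factor Irf8, the histone gene Hist1h2bc, Ms4a6c and the chemokine gene Ccl9. The count of 9 depends on how cells are weighted: it was 51 with equal weight per cell, 50 with cells thinned to 3000 UMIs, 35 without the 5% of cells with most UMIs and 16 without the granulocyte-like cells described next, and all of these sets but the thinned one, with 8, hold the 9. Ccr9 stood at 12.7 CPM (11.4 to 14.2) in the Flt3+ HSA+ sort, 35.9 in the Flt3+ Ly6d- HSA- sort, 4.71 in the Flt3- Ly6d- HSA- sort, 2.73 in the Flt3- Ly6d+ sort and 9.39 in the control. It was 2.82 times lower (2.48 to 3.22) than in the HSA- Flt3+ sort and above both Flt3- sorts.

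Irf8 stood at 18.5 CPM in the Flt3+ HSA+ sort, 51.5 in the Flt3+ Ly6d- HSA- sort, 64.8 in the Flt3- Ly6d- HSA- sort, 34.3 in the Flt3- Ly6d+ sort and 19.1 in the control. Granulocyte-like cells were those with a UMI for at least 7 of 14 granulocyte and monocyte markers. They made up 2.28% of the Flt3+ HSA+ sort, 4.82% of the Flt3+ Ly6d- HSA- sort, 8.38% of the Flt3- Ly6d- HSA- sort and 1.36% of the control. None of the 847 cells of the Flt3- Ly6d+ sort was among them (0 allows a share of up to 0.354%), while its Irf8 lay above that of the Flt3+ HSA+ sort and the control. Without them Irf8 stood at 12.98 CPM in the Flt3+ HSA+ sort, 15.9 in the Flt3+ Ly6d- HSA- sort, 23.6 in the Flt3- Ly6d- HSA- sort, 34.3 in the Flt3- Ly6d+ sort and 15.2 in the control, and was 1.23 times lower than in the Flt3+ Ly6d- HSA- sort. Ms4a6c stood at 14.2 CPM in the Flt3+ HSA+ sort and 19.5 in the Flt3+ Ly6d- HSA- sort without them, and Ccl9 at 2.10 in the Flt3+ HSA+ sort and 2.77 in the Flt3+ Ly6d- HSA- sort. Ccr9 kept its difference without them, at 13.4 CPM in the Flt3+ HSA+ sort and 40.0 in the Flt3+ Ly6d- HSA- sort.

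Among cells with no G2 or M UMI, 6 genes were at least 2-fold higher in Flt3+ HSA+ than in the Flt3+ Ly6d- HSA- sort (Cpa3, Hbb-bt, Ifi30, Ccl5, H2-Ab1 and Cd74) and 2 were lower (Prtn3 and Ccr9). In these cells Ccr9 stood at 26.5 CPM in the Flt3+ HSA+ sort and 55.8 in the Flt3+ Ly6d- HSA- sort, and Cd24a at 176 in the Flt3+ HSA+ sort and 98.5 in the Flt3+ Ly6d- HSA- sort.

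The 6 genes that stood lower than in each other gated sort were Ccl3, Irf8, Tcp11l2, Hist1h2bc, Klrd1 and Ccl4. Counted only over cells with no G2 or M UMI among 3000, 2 genes stood lower, and 0 of the 6 were among them. Ccl4, an inflammatory chemokine, stood at 78.3 CPM in the Flt3+ HSA+ sort, 151 in the Flt3+ Ly6d- HSA- sort, 156 in the Flt3- Ly6d- HSA- sort, 125 in the Flt3- Ly6d+ sort and 45.6 in the control. Ccl3, a chemokine of the same cluster, stood at 32.8 CPM in the Flt3+ HSA+ sort, 64.0 in the Flt3+ Ly6d- HSA- sort, 79.8 in the Flt3- Ly6d- HSA- sort, 66.6 in the Flt3- Ly6d+ sort and 20.5 in the control. Klrd1, which encodes the NK receptor CD94, stood at 11.7 CPM in the Flt3+ HSA+ sort, 20.8 in the Flt3+ Ly6d- HSA- sort, 24.0 in the Flt3- Ly6d- HSA- sort, 20.2 in the Flt3- Ly6d+ sort and 5.86 in the control. For all 3 the control lay below the Flt3+ HSA+ sort. Tcp11l2 stood at 14.1 CPM in the Flt3+ HSA+ sort, 25.5 in the Flt3+ Ly6d- HSA- sort, 48.3 in the Flt3- Ly6d- HSA- sort, 43.9 in the Flt3- Ly6d+ sort and 19.5 in the control. Hist1h2bc stood at 36.7 CPM in the Flt3+ HSA+ sort, 99.2 in the Flt3+ Ly6d- HSA- sort, 120 in the Flt3- Ly6d- HSA- sort, 66.1 in the Flt3- Ly6d+ sort and 47.1 in the control, an order unlike that of the 9 histone genes that stood higher. NK and innate lymphoid markers as a list summed to 788 CPM in the Flt3+ HSA+ sort, with Ncr1, Eomes and Tbx21 at 0, and to 804 to 1283 CPM in the other 4 sorts.

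Over the Flt3- Ly6d- HSA- sort, 179 of 5746 genes (3.12%) were at least 2-fold higher and 62 (1.08%) lower. The 12 of largest ratio upward were Ube2c, Nusap1, Aspm, Plk1, Kif11, Esco2, Ckap2l, Hmmr, Prc1, Spc25, Aurkb and Fam64a, all genes of chromosome cohesion or mitosis, with ratios of 7.33 to 13.7. Of the 179, 73 were in the 6 division lists and 16 in the S phase list. The 12 downward were Apoe, Cpa3, Ccl9, Cebpa, Ms4a6c, Muc13, Qrfp, Fcer1g, Dhrs3, Irf8, Tcp11l2 and Hist1h2bc. Cpa3, a mast cell protease also found in early T-cell precursors, stood at 34.3 CPM in the Flt3+ HSA+ sort, 22.7 in the Flt3+ Ly6d- HSA- sort, 262 in the Flt3- Ly6d- HSA- sort, 219 in the Flt3- Ly6d+ sort and 358 in the control. Apoe stood at 4.45 CPM in the Flt3+ HSA+ sort and 45.5 in the Flt3- Ly6d- HSA- sort. Cebpa, a granulocyte factor, stood at 4.68 CPM in the Flt3+ HSA+ sort and 26.96 in the Flt3- Ly6d- HSA- sort, and without the granulocyte-like cells at 0.453 in the Flt3+ HSA+ sort and 3.58 in the Flt3- Ly6d- HSA- sort. Of 10 immediate early genes, which respond to stimulation and to cell handling, 8 were lower than in the Flt3- Ly6d- HSA- sort, 3 lower than in the Flt3- Ly6d+ sort, 0 lower than in the Flt3+ Ly6d- HSA- sort and 1 (Nr4a1) higher than in the control. Egr1 stood at 10.3 CPM in the Flt3+ HSA+ sort, 11.1 in the Flt3+ Ly6d- HSA- sort, 30.8 in the Flt3- Ly6d- HSA- sort, 16.7 in the Flt3- Ly6d+ sort and 12.6 in the control.

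Over the Flt3- Ly6d+ sort, 178 of 5809 genes (3.06%) were higher and 88 (1.51%) lower. Elane, Prtn3, Anxa3 and Ctsg, proteases and a membrane protein of granulocytes, led the higher genes and were followed by Ube2c, Ckap2l, Anxa1, Ccna2, Plk1, Nusap1, Sapcd2 and Fam64a. Elane stood at 658 CPM in the Flt3+ HSA+ sort and 1.41 in the Flt3- Ly6d+ sort, and at 2.02 CPM in the Flt3+ HSA+ sort without its granulocyte-like cells, of which the Flt3- Ly6d+ sort had none. Without them Prtn3 turned, at 5.89 CPM in the Flt3+ HSA+ sort and 9.04 in the Flt3- Ly6d+ sort, a log2 ratio of -0.62, and it was -0.22 without the 5% of cells with most UMIs. Ctsg then stood at 31.9 CPM in the Flt3+ HSA+ sort and 31.4 in the Flt3- Ly6d+ sort. Of the 178, 72 were in the division lists and 11 in the S phase list. The 12 lower genes were Fgf3, Ly6d, Il2ra, Hbb-bt, Cpa3, Ccl5, Socs3, Dhrs3, Tcf7, Qrfp, Muc13 and Cd160. Fgf3, a growth factor gene, stood at 0.585 CPM (0.328 to 0.966) in the Flt3+ HSA+ sort, 0.203 in the Flt3+ Ly6d- HSA- sort, 4.07 in the Flt3- Ly6d- HSA- sort, 23.0 in the Flt3- Ly6d+ sort and 58.4 in the control. Itga4, an integrin of homing, stood at 110 CPM in the Flt3+ HSA+ sort, 87.5 in the Flt3+ Ly6d- HSA- sort, 195 in the Flt3- Ly6d- HSA- sort, 325 in the Flt3- Ly6d+ sort and 343 in the control. Dtx1, a Notch target, stood at 0.507 CPM in the Flt3+ HSA+ sort, 0.853 in the Flt3+ Ly6d- HSA- sort, 7.78 in the Flt3- Ly6d- HSA- sort, 9.51 in the Flt3- Ly6d+ sort and 6.73 in the control, so both Flt3+ sorts were low in it, while Notch1 itself lay between 113 and 167 CPM in every sort. Dtx1 does not stand for its list. Of 6 measured Notch receptors and targets, 1 (Dtx1) was 1.5-fold lower than in the Flt3- Ly6d- HSA- sort, where 6.21% of all genes were. Over the Flt3- Ly6d+ sort 2 of 6 were lower (Hes1 and Dtx1), against 8.3% of all genes.

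Over the control, 34 of 5709 genes (0.596%) were higher and 93 (1.63%) lower, and none of the 34 was in a division or S phase list. Hmga2, Flt3, Elane, Prtn3, Adgrl4, Anxa1, Il12a, Gem, Ctss, Ccnd1, Lbp and Hoxa9 led the higher genes. Elane and Prtn3 lay in the granulocyte-like cells: without these, Elane stood at 2.02 CPM in the Flt3+ HSA+ sort and 1.91 in the control, and Prtn3 at 5.89 CPM in the Flt3+ HSA+ sort and 7.08 in the control. Without the 5% of cells with most UMIs the log2 ratio over the control was -3.05 for Elane and -2.01 for Prtn3, so both turned. Hoxa9, a homeobox factor of progenitors, stood at 87.7 CPM in the Flt3+ HSA+ sort and 34.1 in the control, and Ccnd1, the cyclin D1 of growth factor response, at 33.1 CPM in the Flt3+ HSA+ sort and 12.03 in the control. The lower genes were led by the commitment factor Bcl11b, at 0.312 CPM in the Flt3+ HSA+ sort and 193 in the control, then Cd3g, Cd3d and Cd3e of the T-cell receptor complex, and Fgf3, Il2ra, Ccdc109b, Fam169b, Gzma, Ly6d, Aqp11 and Cpa3. The gate of the control can hold CD25+ and Bcl11b+ cells, and Il2ra stood at 2.07 CPM in the Flt3+ HSA+ sort and 206 in the control.

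The spread among Flt3+ HSA+ cells was then measured as variance over mean of a gene's UMIs across the 1176 cells at 3000 UMIs, a ratio that is 1 for random sampling alone. Over 6011 genes with a mean of at least 0.05 UMIs the median was 1.02, and 50 genes reached 2. Granulocyte genes and MHC class II genes led, and the first division gene, Ube2c, had rank 18. Of the first 25 genes, Prtn3 (47.2), Elane (43.8), S100a9 (35.2), S100a8 (32.2), Ctsg (21.9), Mpo (13.7), Ms4a3 (8.61), Ly6c2 (5.64) and Cd63 (4.71) had 64.4% to 99.9% of their UMIs in the granulocyte-like class. All but Cd63 are among the 14 markers that define the class, so their shares follow in part from that choice. Cd74 (35.9), H2-Aa (16.3), H2-Eb1 (14.8) and H2-Ab1 (5.66) form the class II group. Ube2c (4.05), Hmgb2 (3.43), Hist1h1b (2.93), H2afx (2.59) and Tubb5 (2.52) had 75.1% to 98.4% of their UMIs in the cells rich in G2 and M transcripts. For the actin gene Actb, also among the 25, the share in these cells was 58.5%. These cells were 47.8% of the sort and deeper than its other cells, so they held more than 47.8% of its UMIs. Their exact share of all UMIs is not given here, so a share near that of Actb is not shown to be an excess. Such spread was not particular to the sort: Ube2c had 4.27 in the Flt3+ Ly6d- HSA- sort and 4.36 in the control, and H2afx had 2.19 and 2.46.

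**Figure D4:**
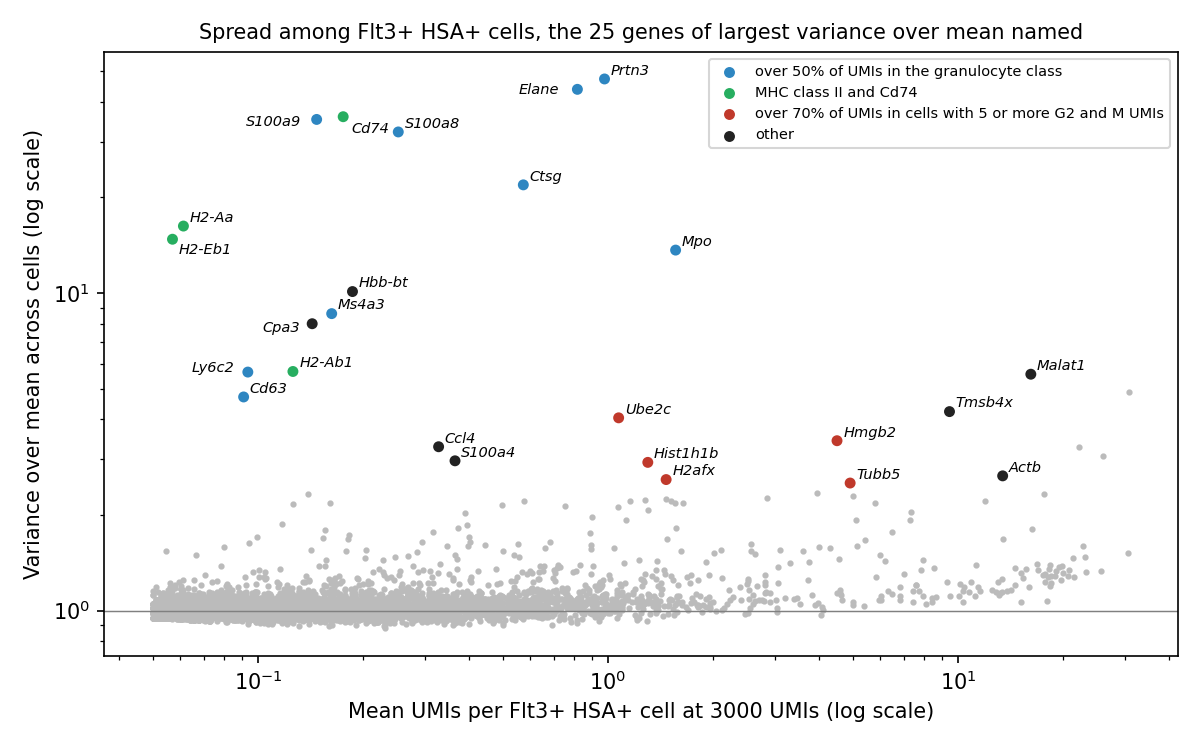
Variance over mean across Flt3+ HSA+ cells (y, log scale) against mean UMIs per cell at 3000 UMIs (x, log scale) for 6011 genes, with the first 25 named and coloured by the cells that hold their UMIs. Most genes lie near 1, and granulocyte and class II genes stand highest.

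The granulocyte-like class in the sort was 27 cells, with a median of 47263 UMIs. They held 99.7% of the Elane UMIs of the sort and 99.9% of the S100a8 UMIs, both genes being markers that define the class. Cd24a had 213 UMIs in them (158 CPM, with a UMI in 26 of 27 cells), while Flt3 had 2 UMIs (1.48 CPM, 1 of 27 cells), against 67.8 CPM in the 1147 remaining cells of the sort outside these and the class II cells. Tcf7 had 3 UMIs in the 27 cells. They thus carried Cd24a RNA and nearly no Flt3 RNA, in a sort gated on both antigens. Within them 15 cells, chosen after their values were seen by 20 or more UMIs of S100a8 and S100a9, genes of later granulocytes, held 98.9% of the S100a8 UMIs of the sort. In the other 12 cells Irf8 stood at 263 CPM, with a UMI in 8 of 12, against 15.1 CPM in the 15. Of the 27 cells, 16 (59.3%) were rich in G2 and M transcripts.

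Most Cd74, H2-Aa and H2-Eb1 UMIs lay in 8 cells with a UMI for all 4 class II genes (H2-Ab1, H2-Eb1, H2-Aa and Cd74), none of them granulocyte-like. Of the UMIs of the sort, they held 86.9% for Cd74 and 92.7% for H2-Aa. H2-Eb1 had 268 UMIs in the 8 cells and 18 in the 1147 remaining cells. H2-Ab1 was spread wider, with 280 UMIs in the 8 cells and 636 in the 1147 remaining cells, of which 407 had a UMI. Cells with a UMI for all 4 genes numbered 8 of 1182 in Flt3+ HSA+, 0 of 1412 in Flt3+ Ly6d- HSA- (which allows a share of up to 0.212%), 1 of 1205 in Flt3- Ly6d- HSA-, 4 of 847 in Flt3- Ly6d+ and 13 of 3302 in the control. In the 1147 remaining cells Cd74 stood at 6.33 CPM, against 45.2 CPM over the whole sort. Genes of dendritic cells picked after their values were seen were present in these 8 cells: Batf3, a dendritic cell factor, had 22 UMIs in 6 of 8 cells, against 3 UMIs in the 1147 remaining cells, Fscn1, an actin bundling protein of mature dendritic cells, had 87 UMIs in 6 of 8, and the adhesion gene Cadm1 had 24 UMIs in 5 of 8 and 0 in the 1147. Xcr1, Siglech, Itgax and Cd79a were at 0 in the 8 cells. Progenitor RNA was present as well, with Dntt UMIs in 5 of 8 cells and Kit UMIs in 5 of 8. The 8 cells held 4395 to 76141 UMIs. Whether these are single cells was not tested, and barcodes of more than one Flt3+ HSA+ cell were estimated at 9.36 (0.792% of the sort) from the barcodes with hashtags of more than one sort.

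Hbb-bt, a beta globin gene with a near-identical neighbour and so of uncertain level, had a variance over mean of 10.1 and 59.1% of its UMIs in 10 cells, with 68.4 CPM in the Flt3+ HSA+ sort, 29.0 in the Flt3+ Ly6d- HSA- sort, 193 in the Flt3- Ly6d- HSA- sort, 563 in the Flt3- Ly6d+ sort and 553 in the control. Hba-a1 was at 0 in the sort. Cpa3 reached 8.01, but a single cell of 3340 UMIs held 36 Cpa3 UMIs, and at 8000 UMIs per cell, where that cell is left out, the value was 2.11. Of the listed markers of other types, Pax5 and Ms4a1 of B cells, Fcer1a of mast cells, Cd8b1 of later thymocytes and Krt5, Psmb11 and Foxn1 of thymic epithelium were at 0 in the sort, where a count of 0 allows up to 0.117 CPM. Other members of these lists were detected: 5 of 8 for B cells (up to 37.5 CPM), 6 of 7 for mast cells and basophils (up to 34.3 CPM), 3 of 4 for later thymocytes (up to 1.60 CPM) and 3 of 7 for thymic epithelium and stroma (up to 1.17 CPM). Markers of 7 lists other than granulocytes and NK cells summed to 1.29 to 210 CPM in the Flt3+ HSA+ sort, the highest being the dendritic list, with 37.1% of its UMIs in 10 cells.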

How the data were processed

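Per the labels, thymus cells of Bcl11byfp/yfp mice were sorted into 5 gates, tagged with hashtag antibodies and loaded as 1 single-cell library. UMI counts per gene and cell were deposited by the authors, who used Cell Ranger 3.0 and mm10, per the submitters' processing notes, with the assignment of cells to sorts in a deposited table. How barcodes were assigned and which cells were filtered out is not stated there. Doublets within a sort were not removed.

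UMI counts were summed per sort and scaled to CPM without further normalization (Python 3.11.15, numpy 2.4.6, pandas 2.3.3, scipy 1.17.1, matplotlib 3.10.9). Each sort is 1 sample, so no test was run and p-values were not computed. Cells were thinned to 3000 UMIs with a fixed seed. The calculation was tested on simulated data. edgeR 4.0.16 (TMM) and DESeq2 1.42.0 size factors served as alternative scalings of the counts. Genes were named by rank of ratio: 12 per direction, or 20 for genes apart from all 3 other gated sorts, and 25 by spread; some are not reported here. The members and lists were chosen with earlier results of these data known. Sequences are RefSeq's for GRCm38.p6.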

Additional observations from a re-analysis of the deposited data

Results flagged for a closer look

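Barcodes without an assigned sort, which enter no comparison, carried the tag of the Flt3+ HSA+ sort as well. In 111 of the 345 unassigned barcodes the Flt3+ HSA+ hashtag and another hashtag each made up 20% or more of the hashtag counts, a signal outside the cells compared. The other tag was that of the control in 54 of them, Flt3+ Ly6d- HSA- in 22, Flt3- Ly6d+ in 22 and Flt3- Ly6d- HSA- in 17, and a barcode can carry more than one of these. Their median was 36066 UMIs.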

How the results depend on the processing

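No paired analysis was possible because each sort is 1 sample in 1 library, and no replicate could be left out. Scaling by TMM or DESeq2 size factors left every count of genes within 1.5 times its value. Keeping only cells with a pure hashtag removed no cell of any sort, so it could not change a count. With no filter on low values, the higher and lower genes numbered 418 and 594 over Flt3+ Ly6d- HSA- cells, 744 and 988 over Flt3- Ly6d- HSA- cells, 854 and 1243 over Flt3- Ly6d+ cells, 1040 and 868 over the control, and 289 and 387 against each of the other 3 gated sorts, since genes of few counts enter. Over Flt3+ Ly6d- HSA- cells the higher genes numbered 51 with equal weight per cell, 50 with cells thinned to 3000 UMIs, 35 without the 5% of cells with most UMIs and 16 without the granulocyte-like class. Genes lower than in each other gated sort numbered 19 after thinning. Among cells with no G2 or M UMI, 2 genes were lower than in Flt3+ Ly6d- HSA- cells, 64 were higher and 28 lower than in Flt3- Ly6d- HSA- cells, 61 higher and 55 lower than in Flt3- Ly6d+ cells, and 8 higher and 2 lower than in each other gated sort. Of the 25 genes of largest spread, 16 remained without the granulocyte-like class. The log2 ratio of Prtn3 over Flt3- Ly6d+ cells was -0.22 without the deepest 5% of cells and -0.62 without the granulocyte-like class, and over the control -2.01 and -0.26. That of Elane over the control was -3.05 without the deepest 5%. The cause of these shifts was not tested. The share of Flt3+ HSA+ cells rich in G2 and M transcripts was 47.7% at 8000 UMIs with a limit of 13, and 47.5% without the granulocyte-like class.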
